A study of Mus musculus with 8 samples.

Results

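The joining segments of the immunoglobulin heavy and kappa loci were followed in ribosome footprints and in mRNA of resting splenic B and T cells of strain B6. They were taken by name, from the Ensembl gene IDs mapped to symbols, and are Ighj1 to Ighj4 and Igkj1 to Igkj5, which makes 9 of the 53801 genes counted. The segments were chosen by their footprint counts, which stood out of line with their mRNA counts, so that footprints against mRNA are given for them as a description. All cells were sorted magnetically with a Miltenyi kit and then held in RPMI medium for 2 hours. B cell footprints (libraries 1 and 3) and T cell footprints (libraries 1 and 2) came from cells that received cycloheximide (100 µg/ml, 15 minutes), which halts ribosomes on the mRNA, and were sequenced from 1 end. B cell mRNA (libraries 1 and 3) and T cell mRNA (libraries 1 and 4) came from cells for which the labels give no treatment, and were sequenced from both ends. No label says whether the libraries of a group came from separate mice, and sorted bulk cells of this kind may hold some cells of other types.

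A joining segment is a short stretch of DNA that V(D)J recombination fuses, in a developing B cell, to a variable segment (kappa) or to a variable and a diversity segment (heavy). The joined segment encodes the end of the variable domain of the antibody chain, and RNA splicing then attaches the constant region, Igkc for kappa and first of all Ighm for the heavy chain. Segments between the joined one and the constant region lie in an intron and leave the mature mRNA with it. Each of the loci carries a row of such segments, and a mature B cell uses a single one per productive chain.

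The 9 segments are annotated as joining segments by RefSeq on GRCm38.p6, and all were matched by symbol. The heavy segments lie on chromosome 12, upstream of Ighm. Ighj1 (ENSMUSG00000076621) spans 113429781 to 113429833, and Ighj2 (ENSMUSG00000076620) spans 113429468 to 113429515. Ighj3 (ENSMUSG00000076619) spans 113429085 to 113429132, and Ighj4 (ENSMUSG00000076618), the nearest to Ighm at a distance of 5783 bases, spans 113428514 to 113428567. The kappa segments lie on chromosome 6, upstream of Igkc. Igkj1 (ENSMUSG00000076604) spans 70722562 to 70722599 and Igkj2 (ENSMUSG00000076605) spans 70722916 to 70722954. Igkj3 (ENSMUSG00000076606) spans 70723223 to 70723260 and Igkj4 (ENSMUSG00000076607) spans 70723548 to 70723585. Igkj5 (ENSMUSG00000076608), the nearest to Igkc at 2511 bases, spans 70723886 to 70723923. The heavy segments are 48 to 54 bases long and the kappa segments 38 or 39, so that levels can be compared within a family almost without regard to length.

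Library totals were 136433 to 627833 counts in footprints and 8945905 to 10050986 in mRNA, and 1 count stood for at most 7.33 CPM (counts scaled by library size, here before TMM) in footprints and 0.112 in mRNA. The B cell identity list (15 genes such as Ms4a1, immunoglobulins left out) was higher in B cells for 15 of 15 tested genes in each assay, and all 15 had counts in every B cell library. In T cells 14 or 15 of them had counts, and the summed level of this list was 1.74% and 4.53% of the B cell mean in footprint libraries 1 and 2, and 1.26% and 2.16% in mRNA libraries 1 and 4. T cell mRNA library 1 stood apart in antibody transcripts. Its Igkc level was 52.4% of the B cell mean, against 3.90% in T cell mRNA library 4. The plasma cell list (9 genes, among them Jchain and Mzb1) had all 9 members with counts and a summed level of 68.3% of the B cell mean there, against 8 members and 8.32% in library 4. Jchain gave 9774 of the 11815 counts of this list in T cell mRNA library 1, at 125% of its B cell mean. The summed level is thus mostly that of Jchain, and the other members differed among themselves in that library. Mzb1 was at 37.4 CPM, against 385 and 283 in B cell mRNA, and Xbp1 at 91.5, against 127 and 100. Irf4, Sdc1, Derl3 and Fkbp11 also lay below both B cell mRNA libraries. Prdm1 (12.4 CPM against 13.1 and 5.13) and Tnfrsf17 (2.74 against 4.93 and 1.09) lay between them. Of 17 T cell identity genes, 15 or 17 had counts in B cells. They summed to 148 and 402 CPM in B cell footprints against 9156 and 6624 in T cell footprints. In mRNA they summed to 113 and 1094 CPM in B cells against 9526 and 10310 in T cells. All 17 were called lower in B cells in footprints but only 3 in mRNA, beside 4.8% and 9.06% of all genes tested. In bulk samples, fewer cells of a type and less RNA per cell cannot be told apart.

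In ribosome footprints, 8 of the 9 joining segments were found in both B cell libraries, at 12 to 126 counts each, and Igkj3 had none in any library. Heavy segments together had 169 and 168 footprint counts in B cell libraries 1 and 3, against 12 and 14 in T cell libraries 1 and 2. Kappa segments together had 295 and 306 in B cells against 59 and 15 in T cells. Every segment other than Igkj3 was higher in CPM in both B cell libraries than in both T cell libraries.

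Among the heavy segments, Ighj4, which lies next to the constant genes, was the most abundant. It had 104 and 58 footprint counts in B cells against 5 and 1 in T cells. Ighj1, at the far end of the row, had 34 and 47 in B cells against 0 and 3 in T cells. The B cell libraries of both segments lay far above the T cell libraries. Ighj2 had 19 and 38 footprint counts in B cells against 5 and 8 in T cells. Ighj3 had 12 and 25 in B cells against 2 and 2 in T cells. Ighj3 was thus the rarest heavy segment in both B cell libraries, and Ighj2 the nearest to overlap, since T cell library 2, the smallest, reached 58.0 CPM for it against 80.3 in B cell library 1.

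Among the kappa segments, Igkj5, the one next to Igkc, had 82 and 126 footprint counts in B cells against 17 and 2 in T cells. Igkj1, the first of the row, had 74 and 92 in B cells against 15 and 9 in T cells. Both were well above their T cell levels, and in library 1 Igkj1, Igkj2 and Igkj5 were about level. Igkj2 had 81 and 55 footprint counts in B cells against 12 and 3 in T cells. Igkj4 had 58 and 33 in B cells against 15 and 1 in T cells. Igkj4 was the rarest of the kappa segments with footprints in both B cell libraries.

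**Figure D1:**
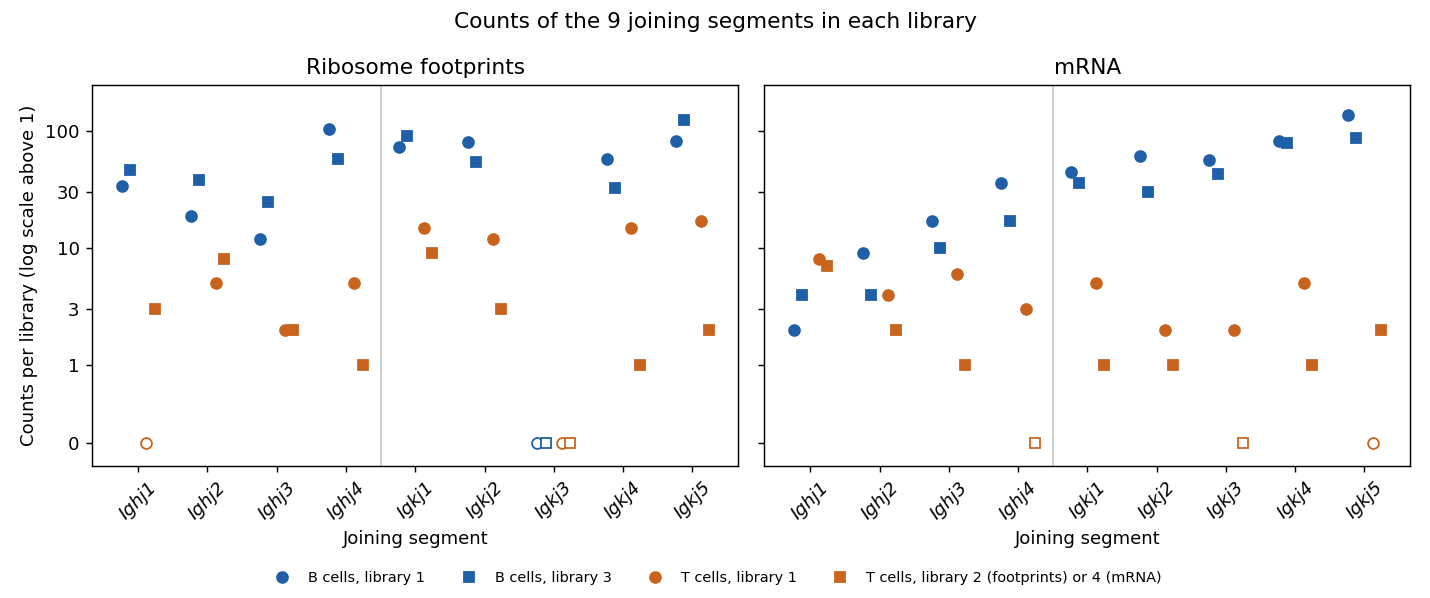
Counts of each joining segment in each library, footprints on the left and mRNA on the right, on an axis that is logarithmic above 1 (circles and squares are the libraries of a group; open symbols are 0). Igkj3 is at 0 in all 4 footprint libraries but has 57 and 43 counts in B cell mRNA, and Ighj1 in mRNA is the segment whose B cell counts (2 and 4) lie below its T cell counts (8 and 7).

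The segments were picked on footprints against mRNA and not on B against T cells, but the counts of both assays entered that measure. The adjusted p-values of single segments therefore describe them and are no independent support. The test of B against T cells within footprints ran over 4771 genes. Of these 8.38% were called higher and 4.8% lower in B cells, and 25.8% had both B cell libraries above both T cell libraries. Of the 9 segments 8 passed the filter on low counts, all through their B cell counts, and all 8 were higher in B cells and without overlap; having entered that way, they lend no weight as a count. Ighj4 averaged 359 ± 114 CPM in B cells against 7.24 ± 0.0143 CPM for T (± SD, 2 libraries in each group; log2 difference 5.56 ± 0.56 SE, adjusted p = 0.000321 in edgeR's quasi-likelihood test). The T cell libraries held 5 counts and 1 count of Ighj4, so this small SD does not measure precision. Ighj1 averaged 184 ± 57.6 CPM in B cells and 10.9 ± 15.4 CPM in T cells and passed at an adjusted p of 0.00254 in edgeR. With 3 counts in T cells its size is best read from the summed counts, a ratio of 50.3 with a 95% counting interval of 16.6 to 249.

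The kappa segments differed by 3.43 to 4.40 on the log2 scale in footprints. Igkj5 averaged 475 ± 182 CPM in B cells against 19.5 ± 7.13 CPM in T cells (4.40 ± 0.52, edgeR adjusted p = 0.000345), and Igkj1 averaged 377 ± 90.5 CPM in B cells against 43.5 ± 30.8 CPM in T cells (3.43 ± 0.54, edgeR adjusted p = 0.00131). Igkj2 stood at 4.01 ± 0.47 and Igkj4 at 3.45 ± 0.54. Ighj3 (3.93 ± 0.81, edgeR adjusted p = 0.00610) and Ighj2 (2.67 ± 0.80, edgeR adjusted p = 0.0485) were the least secure. Without B cell library 3 they stood at 3.10 and 2.00, and without T cell library 1 at 2.45 and 1.12, with adjusted p-values from 0.0671 to 0.533 in edgeR, so that the calls were lost. Ighj2 also lost its call with RLE scaling (edgeR adjusted p = 0.0543), in DESeq2 (adjusted p = 0.112) and with all 8 libraries in a single edgeR fit (adjusted p = 0.137), and Ighj3 in that single fit (adjusted p = 0.0658). Leaving out a T cell library also moved the sizes of others. Without T cell library 1 Ighj1 stood at 3.0, Igkj1 at 2.47 and Igkj4 at 4.65, and without T cell library 2, where Ighj1 had 0 T cell counts left and its fitted 9.09 depends on the prior count, Ighj2 stood at 4.06, Ighj3 at 4.67 and Igkj1 at 4.04, all of them still called. DESeq2 gave Ighj1 an adjusted p of 0.374, against 9.85e-14 to 0.0175 in the other alternatives.

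In mRNA the same segments were thinly covered, although those libraries were far deeper. Kappa segments together had 385 and 276 counts in B cell libraries 1 and 3 against 14 and 5 in T cell libraries 1 and 4. Heavy segments together had 64 and 35 in B cells against 21 and 10 in T cells. Igkc alone had 96096 and 42474 mRNA counts in B cells, and Ighm 112640 and 82655.

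Along the kappa row, B cell mRNA counts were largest next to Igkc. Igkj1 had 45 and 36 mRNA counts in B cells against 5 and 1 in T cells, and Igkj2 had 61 and 30 against 2 and 1. Igkj3 had 57 and 43 in B cells against 2 and 0 in T cells. Igkj4 had 83 and 80 in B cells against 5 and 1 in T cells, and Igkj5 had 139 and 87 against 0 and 2. The highest segment in both B cell libraries was thus the one nearest to Igkc, and no kappa segment overlapped between the cell types. In mRNA the order from Igkj1 to Igkj3 was not the same in the B cell libraries.

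In the heavy row, too, the segment nearest to the constant gene was the highest in B cell mRNA. From Ighj1 to Ighj4, the B cell mRNA counts were 2, 9, 17 and 36 for library 1 and 4, 4, 10 and 17 for library 3. In T cell mRNA they were 8, 4, 6 and 3 for library 1 and 7, 2, 1 and 0 for library 4, so that Ighj1 was the highest and Ighj4 the lowest of the row. Ighj1 held 6.06% of the 99 heavy joining counts in B cell mRNA (95% Wilson interval 2.81% to 12.6%), against 48.4% of the 31 in T cell mRNA (32.0% to 65.2%). Of the 9 segments, Ighj1 alone had fewer mRNA counts in both B cell libraries than in both T cell libraries. At these counts its summed ratio of B over T cells was 0.428, with a 95% counting interval of 0.136 to 1.17 that includes no difference.

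The test of B against T cells in mRNA ran over 13929 genes, of which 9.4% were called higher and 9.06% lower in B cells, and 30% had both B cell libraries above both T cell libraries. Of the 9 segments 7 passed the filter, all through their B cell counts, and Ighj1, the one with fewer counts in B cells, did not. The 7 did not overlap and the 5 kappa segments were called higher, which again lends no weight as a count. Igkj4 averaged 9.01 ± 0.404 CPM in B cells against 0.306 ± 0.284 CPM in T cells (log2 difference 4.81 ± 0.63, edgeR adjusted p = 0.0129). Igkj5 averaged 12.5 ± 4.30 CPM in B cells and 0.105 ± 0.149 CPM in T cells, a ratio of summed counts of 121 with a counting interval of 33.1 to 1004 (edgeR adjusted p = 0.0113). Igkj2 and Igkj3, with 3 and 2 counts in T cells, had ratios of 32.4 (10.8 to 160) and 53.5 (14.4 to 447), and their edgeR adjusted p-values were 0.0156 and 0.0181. Igkj1 (3.80 ± 0.69, edgeR adjusted p = 0.0265) lost the call without B cell library 1 (adjusted p = 0.0831) and without B cell library 3 (adjusted p = 0.0638).

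Of the heavy segments in mRNA, Ighj4 (2.94 ± 1.54 CPM in B cells against 0.152 ± 0.215 CPM in T cells, edgeR adjusted p = 0.0576) and Ighj3 (1.50 ± 0.575 CPM in B cells against 0.357 ± 0.356 CPM in T cells, log2 difference 2.01 ± 0.82, edgeR adjusted p = 0.175) did not pass. Ighj4 passed without T cell library 1 (edgeR adjusted p = 0.0461), in DESeq2 (adjusted p = 0.0154) and with all 8 libraries in a single edgeR fit (adjusted p = 0.00974). Ighj1 and Ighj2 did not enter the test. Without the filter edgeR gave Ighj1 a log2 difference of -1.19 (adjusted p = 0.415) and Ighj2 one of 1.19 (adjusted p = 0.492). T cell library 1 or 4 also decided the size of the kappa calls. Without library 1 Igkj1 stood at 5.24, Igkj3 at 8.67, Igkj4 at 6.25 and Igkj5 at 5.81. Without library 4 they stood at 3.10, 4.67, 4.10 and 9.87, and all of these were called. The values of 8.67 and 9.87 were fitted with 0 counts left in T cells and depend on the prior count. Igkj2 stood at 4.30 without B cell library 1, where it was still called.

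**Figure D2:**
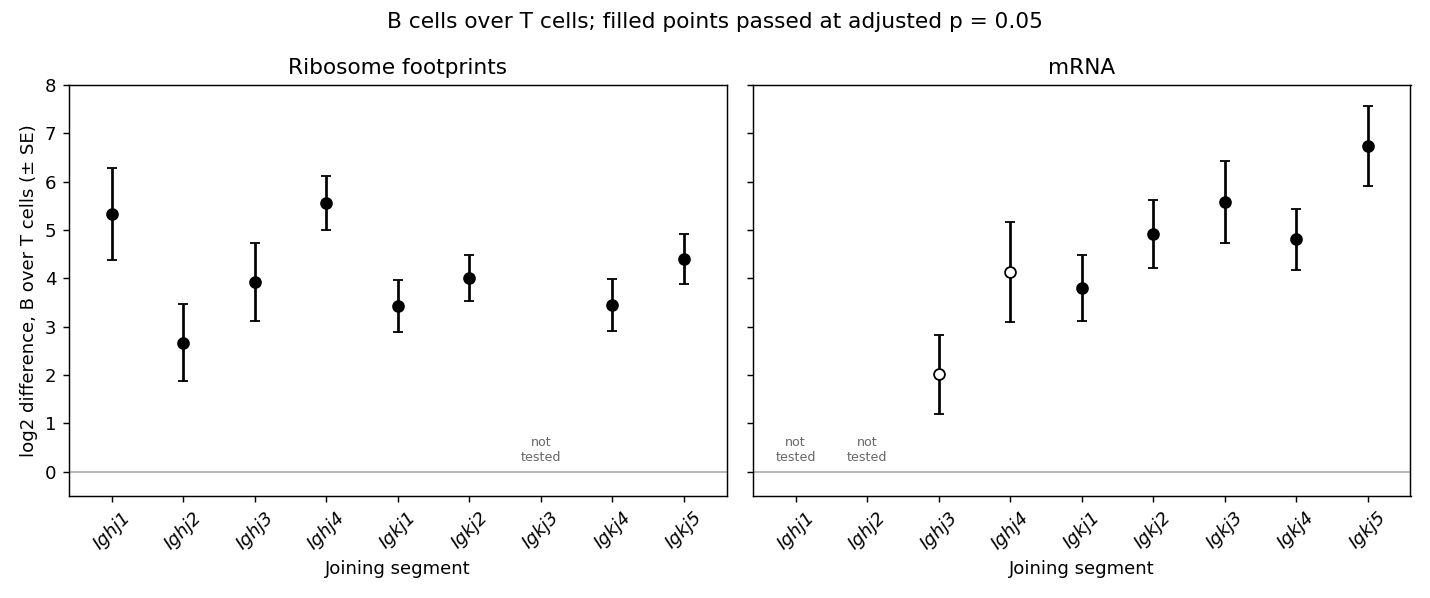
Log2 difference of B over T cells with its standard error for each segment that entered the test, footprints on the left and mRNA on the right; filled points passed at an adjusted p of 0.05. All 8 points in footprints are filled, from 2.67 (Ighj2) to 5.56 (Ighj4), and in mRNA the 5 kappa points are filled and Ighj3 and Ighj4 are not; where T cells held 3 counts or fewer the plotted size depends on the fit.

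Igkj3 differed from the other kappa segments. In the mouse it is known as a non-functional segment. It had 0 of 601 kappa joining footprint counts in B cells, which allows a share of up to 0.499%, and 0 of 74 in T cells, which allows up to 4.05%. The other 4 kappa segments held 15.1% to 34.6% of those B cell counts each. In B cell mRNA Igkj3 held 15.1% of the 661 kappa joining counts (95% Wilson interval 12.6% to 18.1%), about as much as Igkj2 (13.8%, 11.3% to 16.6%) and Igkj1 (12.3%, 9.97% to 15.0%) within these intervals. Intervals and limits here cover counting error only.

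Depth limits how Igkj3 can be read against its own mRNA. It had 100 mRNA counts over the B cell libraries, and with each count taken as a share of its library totals, 0 footprint counts allow a footprint to mRNA ratio of up to 1.18. The other kappa segments had ratios of 22.0 (Igkj4) to 80.6 (Igkj1) in B cells on the same scale. A single other immunoglobulin joining segment of the 14 counted had mRNA counts and no footprints, Iglj3p, which RefSeq classes as a pseudogene. It had 26 and 15 mRNA counts in B cells and none in T cells. Among 80 T cell receptor joining segments 20 had mRNA but no footprint counts, most of them at a few counts.

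The make-up of each row in footprints and mRNA of B cells is, like every value that sets the assays side by side, a description, since the segments were chosen on that contrast. Igkj1 held 25.1% and 30.1% of kappa footprint counts in libraries 1 and 3, against 11.7% and 13.0% of kappa mRNA counts in libraries 1 and 3, with 95% Wilson intervals of 20.5% to 30.3% and 25.2% to 35.4%, against 8.85% to 15.3% and 9.57% to 17.5%. Ighj1 held 20.1% and 28.0% of heavy footprint counts against 3.13% and 11.4% of heavy mRNA counts. For Ighj1 the 95% Wilson intervals overlapped between footprint library 1 (14.8% to 26.8%) and mRNA library 3 (4.54% to 26.0%). Igkj2 held 27.5% and 18.0% in footprints against 15.8% and 10.9% in mRNA. Its 95% Wilson intervals overlapped between footprint library 3 (14.1% to 22.7%) and mRNA library 1 (12.5% to 19.8%). Igkj3 held 14.8% and 15.6% of kappa mRNA counts and no footprints, which by itself raises the footprint shares of the other kappa segments. The other way round were Ighj3, with 7.10% and 14.9% in footprints against 26.6% and 28.6% in mRNA, and Igkj4, with 19.7% and 10.8% against 21.6% and 29.0%. Intervals overlapped for Ighj3 between footprint library 3 (10.3% to 21.0%) and mRNA library 1 (17.3% to 38.5%). For Igkj4 they overlapped between footprint library 1 (15.5% to 24.6%) and mRNA library 1 (17.7% to 25.9%). The libraries of the assays overlapped for Igkj5, which held 27.8% and 41.2% in footprints against 36.1% and 31.5% in mRNA, and for Ighj2 and Ighj4.

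The B cell footprint libraries also differed between themselves. Ighj4 held 61.5% of the heavy footprint counts in library 1 (95% Wilson interval 54.0% to 68.5%) and 34.5% in library 3 (27.8% to 42.0%). Igkj5 held 27.8% (23.0% to 33.2%) in library 1 and 41.2% (35.8% to 46.8%) in library 3. Other transcripts moved between the same libraries. Jchain, the joining chain of secreted antibody, had 1081 CPM in library 1 and 2653 in library 3, and heavy constant genes other than Ighm and Ighd summed to 9936 and 19192 CPM. Their part in the shares of the segments was not tested.

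**Figure D3:**
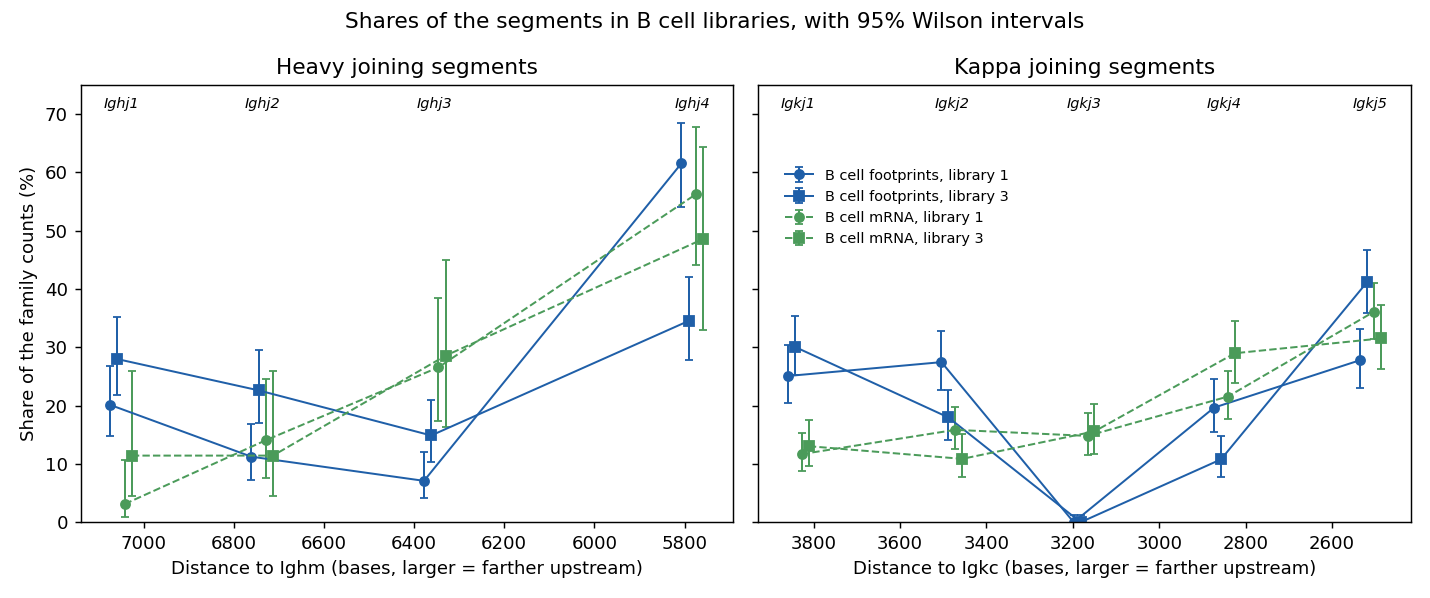
Share of the heavy (left) and kappa (right) joining counts held by each segment in B cell libraries, with 95% Wilson intervals, against the distance of the segment from Ighm or Igkc in bases (points are shifted slightly sideways). In mRNA the segment nearest to the constant gene holds the largest share in both rows, while in footprints Igkj3 is at 0 and the far segments Igkj1 and Ighj1 hold 25.1% and 30.1% and 20.1% and 28.0%.

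In proportion to those on the constant genes, footprints on the segments varied up to 1.64 times (kappa) and 1.89 times (heavy) over the 4 footprint libraries. Per 1000 Igkc footprint counts there were 41.3 and 67.7 kappa joining counts in B cell libraries 1 and 3, against 57.9 and 46.4 in T cell libraries 1 and 2. The B cell values had 95% intervals of 36.8 to 46.4 and 60.3 to 76.0, which did not overlap, so these libraries differed beyond counting error. Per 1000 counts of the 8 heavy constant genes there were 26.9 and 23.8 heavy joining counts in B cells against 14.2 and 26.5 in T cells. The T cell values had 95% intervals of 44.6 to 75.2 and 27.8 to 77.5 for kappa, and of 8.11 to 25.0 and 15.7 to 44.7 for heavy. B and T cell libraries overlapped in both ratios. Against Ighm alone, heavy joining footprints were 48.2 and 59.9 per 1000 in B cells against 31.6 and 46.7 in T cells, which did not overlap, although the 95% intervals did.

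In mRNA the proportion was lower throughout, and for kappa the cell types did not overlap. Per 1000 Igkc mRNA counts there were 4.01 and 6.50 kappa joining counts in B cell libraries 1 and 3, against 0.352 and 1.76 in T cell libraries 1 and 4. The highest is 18.4 times the lowest. The 95% intervals in B cells were 3.62 to 4.43 and 5.77 to 7.31, and in T cells 0.210 to 0.591 and 0.749 to 4.11. Heavy joining counts per 1000 heavy constant mRNA counts were 0.352 and 0.298 in B cells against 0.268 and 0.885 in T cells, and overlapped. Against Ighm alone they were 0.568 and 0.423 in B cells against 0.899 and 1.19 in T cells. Constant genes other than Ighm and Ighd gave 54847 of the 78293 heavy constant counts in T cell library 1. In T cell library 4 they gave 2641 of 11302. Kappa variable segments had 445 and 464 Igkv counts per 1000 Igkc counts in B cell mRNA against 529 and 404 in T cell mRNA. In footprints they had 232 and 483 in B cell libraries 1 and 3 against 270 and 545 in T cell libraries 1 and 2.

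**Figure D4:**
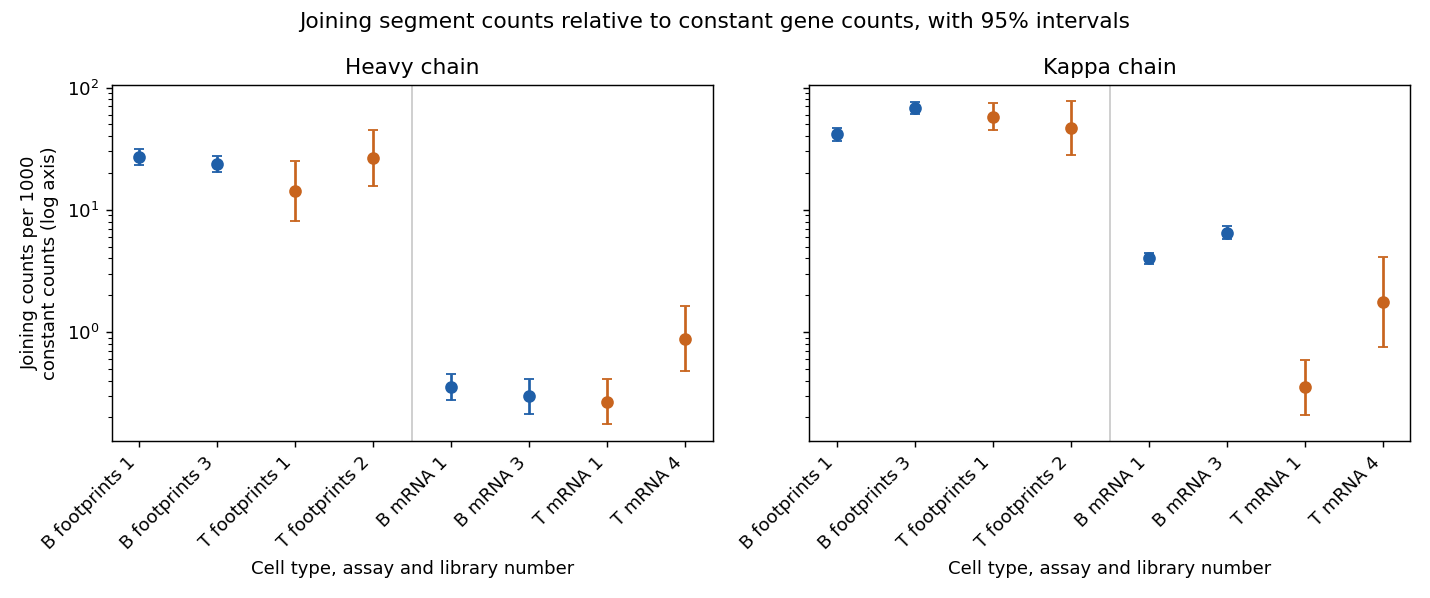
Joining segment counts per 1000 constant gene counts in each of the 8 libraries, heavy on the left and kappa on the right, on a log axis with 95% intervals (blue, B cells; orange, T cells). The 4 footprint libraries lie between 14.2 and 26.9 (heavy) and between 41.3 and 67.7 (kappa), and the mRNA libraries between 0.268 and 0.885 and between 0.352 and 6.50.

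Per base, the kappa segments with footprints lay nearer to Igkc in footprints than in mRNA. Igkj5 had 2.16 and 3.32 footprint counts per base in B cell libraries 1 and 3, which is 9.68% and 23.5% of the density over the 320 bases of Igkc. In B cell mRNA its density was 1.22% and 1.72% of that of Igkc. Igkj2 stood at 9.31% and 9.98% in B cell footprints against 0.521% and 0.580% in B cell mRNA. The Igkc length is that of RefSeq, and the feature the authors counted may be longer.

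Against B cells, kappa joining mRNA was lower in T cell library 1 than other kappa transcripts were. In T cell footprint libraries 1 and 2 the kappa segments were at 6.29% and 8.02% of the B cell mean, Igkc at 5.69% and 9.04% and the kappa variable segments at 4.55% and 14.6%. In T cell mRNA library 1 the kappa segments were at 3.88% while Igkc was at 52.4% and the kappa variable segments at 61.4%. In T cell mRNA library 4 the values were 1.44%, 3.90% and 3.49%. The kappa joining level of library 1 thus lay nearer to that of the B cell identity list (1.26%) than to that of Igkc. The plasma cell list, mostly Jchain counts, was at 68.3%. The part of plasma cell RNA in these values was not tested.

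Heavy segments in T cell mRNA lay higher than kappa ones, at 38.8% and 19.2% of the B cell mean in libraries 1 and 4, on 21 and 10 counts. Ighm was at 21.9% and 8.16% there, and Ighd, which is made by naive B cells beside Ighm, at 0.492% and 1.53%. The heavy constant genes other than Ighm and Ighd summed to 148% of the B cell mean in library 1 and 7.38% in library 4. The heavy variable segments were at 91.2% in library 1 and 4.63% in library 4. Of the 10 heavy joining counts in library 4, 7 were those of Ighj1, and of the 21 in library 1, 8 were, so that this segment carries much of the level. In T cell footprints the heavy segments were at 2.28% and 13.4%, beside 3.89% and 15.4% for Ighm. Counts for diversity segments, of which the annotation holds 20, were 9 and 4 in B cell mRNA and 6 and 2 in T cell mRNA.

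**Figure D5:**
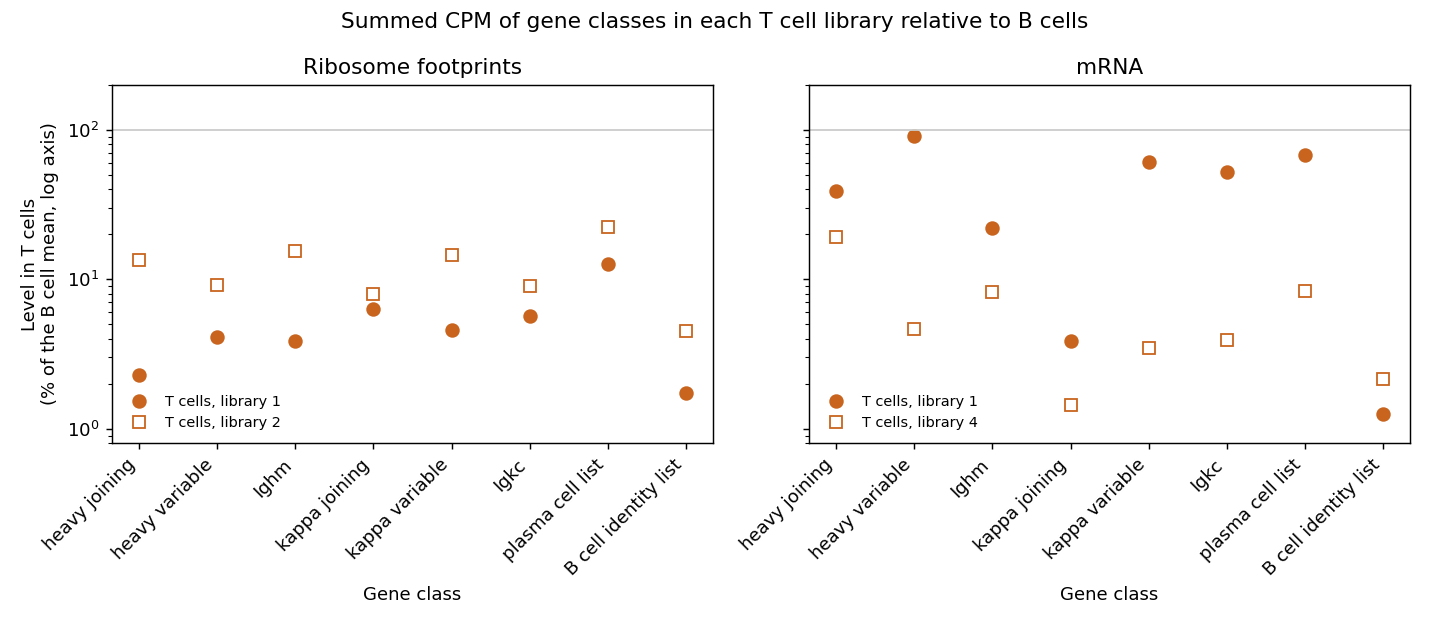
Summed CPM of each gene class in each T cell library as a percentage of the mean of the B cell libraries of the same assay, on a log axis (filled circles, library 1; open squares, library 2 for footprints and 4 for mRNA; the grey line marks 100%). In mRNA library 1 the kappa joining segments sit at 3.88% while Igkc, the kappa variable segments and the plasma cell list (mostly Jchain counts) sit at 52.4%, 61.4% and 68.3%.

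Footprints over mRNA, the measure by which the segments were chosen, is given without a test. In B cells the fitted log2 difference was 8.92 for Ighj1, 7.36 for Ighj2, 6.84 for Ighj4 and 6.29 for Igkj1. Igkj2 stood at 5.82, Ighj3 at 5.71, Igkj5 at 5.15 and Igkj4 at 4.40. Single libraries moved some of these by over 1.5 times. Without B cell footprint library 3 Ighj2 stood at 6.65, under Ighj4 at 7.11, and Ighj3 at 4.96, and without B cell mRNA library 1 Ighj2 stood at 8.08, Ighj4 at 7.53 and Igkj2 at 6.48. The median over all 9 was 5.82, also with Igkj3 at its limit, against -0.44 over the 13227 genes fitted, and Igkc and Ighm stood at 1.67 and 0.30. In T cells the 8 segments with footprints ran from 2.30 (Ighj1) to 7.37 (Igkj5) with a median of 5.78, on sums as small as 3 footprint counts (Ighj1) and 2 mRNA counts (Igkj5). Leaving out any 1 of the 4 T cell libraries moved some of them by over 1.5 times. Ighj1 stood at 4.64 and -5.11 without footprint libraries 1 and 2, and Igkj5 at 6.49 and 9.54 without mRNA libraries 1 and 4. By summed counts Igkj1 had a ratio of 80.6 (61.4 to 106) in B cells and 99.4 (39.6 to 297) in T cells, intervals that overlap. Igkj5 had 36.2 (29.8 to 43.9) in B cells and 236 (57.0 to 2091) in T cells. Ighj1 went the other way, with 531 (234 to 1489) in B cells and 4.97 (0.922 to 17.6) in T cells. These intervals cover counting error only.

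The lambda and T cell receptor rows offered a comparison. Lambda joining segments had 47 and 40 footprint counts in B cells against 4 and 6 in T cells, and 96 and 71 mRNA counts in B cells against 1 and 1 in T cells. Iglj3 had 39 and 21 footprint counts in B cells against 1 and 3 in T cells and was called higher in B cells (4.52 ± 0.82, edgeR adjusted p = 0.00286), whereas Iglj1 had 8 and 19 against 3 and 3 and did not enter the test. Iglj2 and Iglj4 were listed at 0 in all libraries. Per 1000 counts of their constant genes, lambda segments had 147 and 125 counts in B cell footprints against 6.62 and 6.66 in B cell mRNA. On the same scale T cell receptor beta segments had 189 and 486 counts in T cell footprints against 13.2 and 11.6 in T cell mRNA, and alpha segments 104 and 89.3 against 14.2 and 11.1. A higher proportion of joining counts in footprints than in mRNA was therefore measured in each of these rows too, and no difference between rows was tested. Of the T cell receptor segments, Trbj1-4 had the most footprints, with 0 and 0 counts in B cells against 26 and 6 in T cells, followed by Trbj2-1 with 0 and 2 in B cells against 16 and 3 in T cells.

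The enzyme that cuts these segments was barely detected in the sorted cells. Rag1, which with Rag2 makes the cut, had 8 and 5 mRNA counts in B cells against 1 and 1 in T cells, and Rag2 had 1 and 0 against 0 and 0. Of the list of 14 recombination and end joining genes, 12 entered the mRNA test and 1 passed, Polm, a DNA polymerase of end joining, which was higher in B cells (79.9 ± 12.2 CPM in B cells against 32.8 ± 0.162 CPM in T cells; log2 difference 1.28 ± 0.15, edgeR adjusted p = 0.0107). Dntt, which adds untemplated bases at the joints, had 7 and 30 mRNA counts in B cells against 100 and 88 in T cells (edgeR adjusted p = 0.0846), and Dclre1c stood at 0.74 ± 0.22 (edgeR adjusted p = 0.0868). In footprints 5 entered, and those with the smallest p were Xrcc6 (1.63 ± 0.57, edgeR adjusted p = 0.0932) and Xrcc5 (1.41 ± 0.54, edgeR adjusted p = 0.132), which together hold DNA ends. The list's median was -0.02 in mRNA and 0.25 in footprints, beside -0.01 and 0.02 over all genes tested.

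The 11 of 12 constant genes that entered the footprint test were all higher in B cells, beside 8.38% of all genes (median 4.17, against 0.02 over all genes). Those that entered through their B cell counts, such as Ighd (429 and 255 against 10 and 6 in T cells), lend no weight as a count. Igkc (3.77 ± 0.79, edgeR adjusted p = 0.00664) and Ighm (3.39 ± 0.80, edgeR adjusted p = 0.0141) were among the 11. In mRNA 3 of 12 passed, Ighd (6.63 ± 0.69), Iglc3 (4.77 ± 0.65) and Ighm (2.73 ± 0.55, edgeR adjusted p = 0.0344), beside 9.4% of all genes, with a median of 1.59. Igkc had 10765 and 4633 CPM in B cell mRNA against 4032 and 300.4 in T cell mRNA and did not pass (1.83 ± 1.21, edgeR adjusted p = 0.377). The mRNA values include T cell library 1, where Igkc was at 52.4% and the plasma cell list, mostly Jchain counts, at 68.3% of the B cell mean. The part of that library in these values was not tested.

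Over the 8 libraries, the genes whose log2 CPM profile was most like the mean profile of the 9 segments were Jarid2 (Pearson r = 0.987), Smim24 (0.981), Tlr9 (0.978), Hsp90b1 (0.977), Iglj3 (0.974) and Slamf7 (0.972), among 13218 candidates. The libraries share their assay and cell type, so these values describe a common order of groups and not the size of differences. Jarid2 had 38 and 37 footprint counts in B cells against 48 and 14 in T cells. Its mRNA counts were 745 and 690 in B cells against 492 and 443 in T cells. Iglj3 was the only joining segment among them, and Igkc ranked at 783 with an r of 0.747.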

How the data were processed

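The deposited values are the authors' counts per Ensembl gene ID, whole numbers for 53801 IDs in each of the 8 libraries; 53620 IDs matched a symbol. The mm10 build and the tools HTSeq, TopHat, Bowtie2 and FastQC are credited to the submitters' processing notes. Settings, strand use and the handling of reads that touch more than 1 gene were not given in the sources used here. Reads that cross from a joining segment into a variable or constant gene may therefore be missing or shared out. The same holds for reads that match several like segments or several like constant genes. The levels of single segments, and ratios to constant genes, are uncertain to that extent. Of the rows 0 named unassigned reads.

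B and T cells were compared within each assay by the quasi-likelihood test of edgeR 4.0.16 (R 4.3.3), after filterByExpr (minimum count 10, total 15) and TMM scaling, with Benjamini-Hochberg adjustment over all genes tested, at 0.05. P-values cover the spread between libraries alone, which may be technical. Footprints over mRNA came from an edgeR fit of all 8 libraries. CPM use TMM-scaled totals. Counting intervals are 95% exact or Wilson intervals, with a floor of 3 counts over a group. The alternatives were DESeq2 1.42.0, RLE scaling, no filter, a single fit of all libraries, summed segments, a replicate block, and each library left out. The fits were also run on simulated counts with the same spread for every gene, which lends no weight to the calls in these libraries. The members and gene lists were chosen with earlier results of these data known. The genes named were all 9 segments, Ighm, Ighd, Igkc, the lambda segments, up to 3 of each other list by smallest p, the 6 nearest in profile and the 2 T cell receptor segments with most footprints. Rag1, Rag2, Iglj3p, Ms4a1, Jchain, Mzb1 and the other plasma cell genes were named after their values were seen.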

Additional observations from a re-analysis of the deposited data

Results flagged for a closer look

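For Ighj1 the libraries of B and T cells lay in opposite orders in the assays. In footprints its summed ratio of B over T cells was 50.3 and both B cell libraries (34 and 47 counts) lay above both T cell libraries (0 and 3). In mRNA the ratio was 0.428, with a 95% counting interval of 0.136 to 1.17 that includes no difference, and both B cell libraries (2 and 4 counts) lay below both T cell libraries (8 and 7). The difference between the assays was not tested, since the segments were chosen on footprints against mRNA.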

How the results depend on the processing

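The B over T differences of the tested segments kept their direction in every alternative in which they entered. Counted over segments and alternatives, a call was lost 11 times and gained 3 times. Lost calls were those of Ighj1, Ighj2 and Ighj3 in footprints and Igkj1 in mRNA, and the gains were those of Ighj4 in mRNA. The number of segments called higher in B cells was 6 to 8 in footprints and 4 to 6 in mRNA when a library was left out. The number of all genes called was 415 to 898 in footprints (main value 629) and 1455 to 1973 in mRNA (main value 2572), lowest without T cell footprint library 1 and without B cell mRNA library 1. With 3 libraries, the lone library of a group is assumed to vary like the others. With the segments of a row summed to 1 feature, the log2 difference of B over T cells was 4.04 ± 0.68 (edgeR adjusted p = 0.00168) for heavy and 3.82 ± 0.47 (adjusted p = 0.000345) for kappa in footprints, and 1.77 ± 0.55 (adjusted p = 0.0970) and 5.21 ± 0.49 (adjusted p = 0.00672) in mRNA. With a footprint library left out, the median of footprints over mRNA over 9 segments was 5.97 to 6.18 in B cells (5.82 with all) and 5.22 to 5.43 in T cells (5.72 with all). With an mRNA library left out Igkj3 did not enter, and the median over 8 segments was 5.78 to 6.50 in B cells (6.06 with all) and 5.27 to 6.77 in T cells (5.78 with all), the highest in T cells being without mRNA library 1. In T cells Ighj1, at 2.30 with all libraries, ran from -5.11 to 4.64, the lowest without footprint library 2, where 0 footprint counts remained. With a replicate block for the numbers shared by B cell footprint and mRNA libraries the B cell median was 5.91, against 5.85 in the same 4 libraries without it. The numbers are not shown to pair the libraries, whose deviations had a correlation of -0.00866 over 13227 genes. No paired analysis was possible for B against T cells because these share a single number in each assay. Many T cell values rest on 5 counts or fewer.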
